A study of Mus musculus with 4 samples.

Results

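The 8 genes described here, Nphs1, Podxl, Wt1, Synpo, Cd2ap, Ptpro, Actn4 and Kirrel, are genes known for their products in podocytes, the epithelial cells that cover the capillaries of the kidney glomerulus. They were taken by name from a list of podocyte genes, among 21216 genes with a named probe, and 16 of the 41174 probes that were not controls carry one of these names in the scanner files. All 8 genes had at least 1 probe well above background on all 4 arrays. The study measured whole kidney RNA from C57BL/6 mice of 8 weeks on one-colour Agilent arrays, with 1 array for each of 4 groups: wild type (WT) after a sham operation, Nlrc5-/- after a sham operation, WT after ischemia-reperfusion injury and Nlrc5-/- after the same injury. Both kidneys were made ischemic for 30 min. Reperfusion lasted 48 h by the titles and the study design, while the sample descriptions give 24 h. The labels do not say which part of Nlrc5 was deleted, or whether a sample came from a single animal. Each title carries a number of its own and the letter R or L, with no meaning given. The letter was R for WT sham and injured Nlrc5-/- and L for Nlrc5-/- sham and injured WT. Within each genotype it differs between sham and injured, and within each treatment between the genotypes, so it cannot be told apart from injury or genotype there. It also divides the arrays in the same way as the difference between the injury responses. By its title the study asked whether loss of Nlrc5 protects against acute kidney injury.

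Podocytes send out interlocking foot processes, and the gap between neighbouring processes is bridged by the slit diaphragm, a junction built from nephrin and related adhesion proteins. Adaptor proteins tie this junction to the actin skeleton of the foot process, and a negatively charged surface coat keeps the processes apart. Glomeruli make up a small part of the kidney, and some of the 8 genes, such as Actn4 and Cd2ap, are also active in many other cell types. All 10 proximal tubule markers examined were above background on all 4 arrays. In whole kidney RNA, fewer podocytes and less RNA per podocyte cannot be told apart.

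The 250 bases before the start of transcription are shown for the 5 genes that the RefSeq promoter table holds (GRCm38.p6), because these 5 divide by their content of CG dinucleotides. Capitals mark every CG. Podxl, Wt1 and Synpo have no entry.
Nphs1: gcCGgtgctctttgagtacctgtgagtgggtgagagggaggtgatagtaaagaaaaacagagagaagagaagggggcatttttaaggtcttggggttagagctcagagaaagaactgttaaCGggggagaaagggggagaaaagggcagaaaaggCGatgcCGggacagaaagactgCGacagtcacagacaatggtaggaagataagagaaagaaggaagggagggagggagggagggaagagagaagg
Ptpro: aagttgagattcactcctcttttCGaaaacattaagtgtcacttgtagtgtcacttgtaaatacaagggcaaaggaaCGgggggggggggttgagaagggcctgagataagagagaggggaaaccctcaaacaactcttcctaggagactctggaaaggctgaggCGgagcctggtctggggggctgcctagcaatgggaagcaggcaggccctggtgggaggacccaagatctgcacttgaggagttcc
Actn4: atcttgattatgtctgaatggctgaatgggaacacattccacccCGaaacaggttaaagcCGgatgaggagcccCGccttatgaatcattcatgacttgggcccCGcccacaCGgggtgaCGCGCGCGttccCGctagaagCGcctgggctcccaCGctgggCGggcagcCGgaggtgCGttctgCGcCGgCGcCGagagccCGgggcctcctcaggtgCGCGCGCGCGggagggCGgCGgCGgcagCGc
Cd2ap: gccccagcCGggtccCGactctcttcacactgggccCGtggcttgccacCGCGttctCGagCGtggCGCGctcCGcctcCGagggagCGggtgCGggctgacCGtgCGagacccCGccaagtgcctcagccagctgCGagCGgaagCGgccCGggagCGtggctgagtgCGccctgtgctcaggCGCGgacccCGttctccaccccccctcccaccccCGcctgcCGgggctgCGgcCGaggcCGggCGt
Kirrel: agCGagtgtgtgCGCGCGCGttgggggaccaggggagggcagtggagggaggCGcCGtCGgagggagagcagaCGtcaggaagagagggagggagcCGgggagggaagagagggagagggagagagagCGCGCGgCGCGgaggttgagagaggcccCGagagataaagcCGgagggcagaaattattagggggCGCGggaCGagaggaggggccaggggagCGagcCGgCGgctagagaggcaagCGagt
The Nphs1 sequence lies at chr7:30459808-30460057 on the plus strand and the Ptpro sequence at chr6:137252049-137252298 on the plus strand. The other three are on the minus strand, Actn4 at chr7:28962333-28962582, Cd2ap at chr17:42876425-42876674 and Kirrel at chr3:87174538-87174787. The Ptpro promoter holds 3 CG dinucleotides and the Nphs1 promoter 5, against a median of 6 over 27025 promoters of the same length. The promoters of Kirrel, Actn4 and Cd2ap hold 24, 29 and 31, and 11.7% of all promoters hold at least 24. Nphs1 and Ptpro are also the genes of these 5 whose brightest probe was lower by more than 2-fold on the injured WT array, as given below for each gene. With 5 promoters this is a description only. Of the motifs searched on both strands, the short EGR and WT1 site GNGTGGGNG occurred in the promoters of Nphs1 (from -227), Actn4 (from -146 and -101) and Cd2ap (from -42), and in 12.5% of all promoters, with positions counted back from the start. The longer form GCGGGGGCG, the LMX1B motif TAATTA and the TATA box TATAAA matched none of the 5, and 2.56%, 4.9% and 13.0% of all promoters hold them. The E-box CANNTG, present in 66.0% of all promoters, matched those of Ptpro, Actn4 and Cd2ap.

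Values below are log2 of the processed signal minus the 75th percentile of the array, so that 0 is the 75th percentile itself. A difference of 1 is 2-fold. With 1 array per group, a difference between 2 arrays has no replicate check and no p-value. Repeated spots of 1 probe gave an SD of 0.15 for such a difference (170 probes), which covers technical noise within arrays and leaves out animals. The 75th percentile of the signal was 181.8 on the injured WT array and 361.7 to 465.5 on the others, and between 67.5% and 74.9% of spots were well above background. Both WT arrays were on 1 slide and both Nlrc5-/- arrays on another, so slide and genotype cannot be told apart, while injured and sham arrays of a genotype shared a slide. The sham Nlrc5-/- array stood apart from the other 3: Xist was at 5.2 there and not above background elsewhere, and Ddx3y, Eif2s3y, Kdm5d and Uty were above background on the other 3 arrays only. Every comparison with the sham Nlrc5-/- array is therefore also a comparison between a female and a male pattern, and sex cannot be told apart from genotype or injury there. The WT sham array, the reference of every WT injury value, stood apart in fat markers: Cidea was at 2.73 there and between -4.13 and -3.71 elsewhere, and Adipoq was above background there alone. The part of this in the values of the 8 genes was not tested. The Nlrc5 probe read -4.08 in WT sham, -3.77 in Nlrc5-/- sham, -3.35 in WT injured and -3.62 in Nlrc5-/- injured. It was thus above background on both arrays labelled knockout, and it checks the labels only if it lies in the deleted part, which the labels do not give.

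Nphs1 encodes nephrin, the adhesion protein that spans the slit diaphragm. Its single probe read -1.45 in WT sham, -1.18 in Nlrc5-/- sham, -3.26 in WT injured and -1.79 in Nlrc5-/- injured. The injured WT array was the lowest of the 4, and the other 3 lay within 0.61 of each other. Before scaling, the processed signal was dim in injured WT, at 19.0, and 104 to 205 on the other arrays. The injured WT value was -1.81 from WT sham, a ratio of 3.5, and the injured Nlrc5-/- value was -0.61 from its sham. Between the injured arrays Nphs1 stood 1.46 higher in Nlrc5-/-, against 0.27 between the sham arrays. The probe lies at chr7:31266833-31267052 (mm9), starts at base 3512 of the transcript and covers 220 bases of genome with 60 bases of sequence, so it crosses an intron. It is shown because every nephrin value rests on it.
Nphs1 probe: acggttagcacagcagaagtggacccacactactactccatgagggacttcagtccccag

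Kirrel encodes NEPH1, the partner of nephrin in the slit diaphragm. Its brightest probe read -0.13, 0.27, 0.09 and 0.63 in WT sham, Nlrc5-/- sham, WT injured and Nlrc5-/- injured, the order used for all values that follow. Both injured arrays were above their shams, by 0.23 in WT and 0.36 in Nlrc5-/-. Unlike the Nphs1 probe, this probe was not lowest on the injured WT array. The other probes of Kirrel, at bases 1239 and 1518 of a different transcript record, were not above background on any array. The Kirrel values thus rest on 1 probe, at base 6986 of its own record.

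Ptpro encodes GLEPP1, a receptor tyrosine phosphatase of the podocyte surface. Its brightest probe (chr6:137411520-137411579, mm9) read 0.64, 1.7, -1.8 and 0.99. The injured WT array was far below the other 3, and the sham Nlrc5-/- array was the highest. The difference after injury was -2.44 in WT and -0.71 in Nlrc5-/-. Ptpro stood 2.79 higher in Nlrc5-/- than in WT after injury, a ratio of 6.93, and 1.06 higher in the sham pair. Averaged over its probes above background, the difference between the injured arrays was 1.01.

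Podxl encodes podocalyxin, the sialomucin that gives the foot processes their charged coat and that vascular endothelium also carries. Its brightest probe (chr6:31470405-31470464, mm9) read -0.74, -0.48, -3.1 and -2.0. Both injured arrays were below both sham arrays, a pattern that no other of the 8 genes showed by 2-fold in each genotype. The differences after injury were -2.37 in WT, a ratio of 5.16, and -1.53 in Nlrc5-/-, a ratio of 2.88. The injured Nlrc5-/- array stood 1.1 above the injured WT array.

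Wt1 encodes a zinc finger transcription factor that podocytes keep into adult life. Its probe was spotted 10 times per array, and 9 or 10 spots per array carried no flag. It read -0.16, 0.71, -1.74 and 0.07, with SDs over spots of 0.071, 0.023, 0.071 and 0.033. The injured WT array was again the lowest, and the difference between any pair of arrays was wider than the spread over spots. The difference after injury was -1.58 in WT and -0.64 in Nlrc5-/-. Wt1 stood 0.87 higher in Nlrc5-/- in the sham pair and 1.81 higher in the injured pair.

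The genes that tie the slit diaphragm to actin differed less by their brightest probes. Cd2ap, the adaptor that binds nephrin, read 3.04, 2.63, 3.33 and 2.63, which put both WT arrays above both Nlrc5-/- arrays. Its difference after injury was 0.29 in WT and 0.01 in Nlrc5-/-, the latter within the technical noise. Synpo, which encodes the actin-associated protein synaptopodin, read 0.83, 1.06, 0.33 and 0.71. The injured arrays were below their shams by less than 2-fold, at -0.5 in WT and -0.35 in Nlrc5-/-. Actn4 encodes alpha-actinin-4, a crosslinker of actin filaments, and read 4.59, 4.98, 5.36 and 5.23. WT sham was the lowest array for Actn4, the injured WT array stood 0.77 above it, and the injured arrays differed by -0.12, less than the technical noise.

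**Figure D1:**
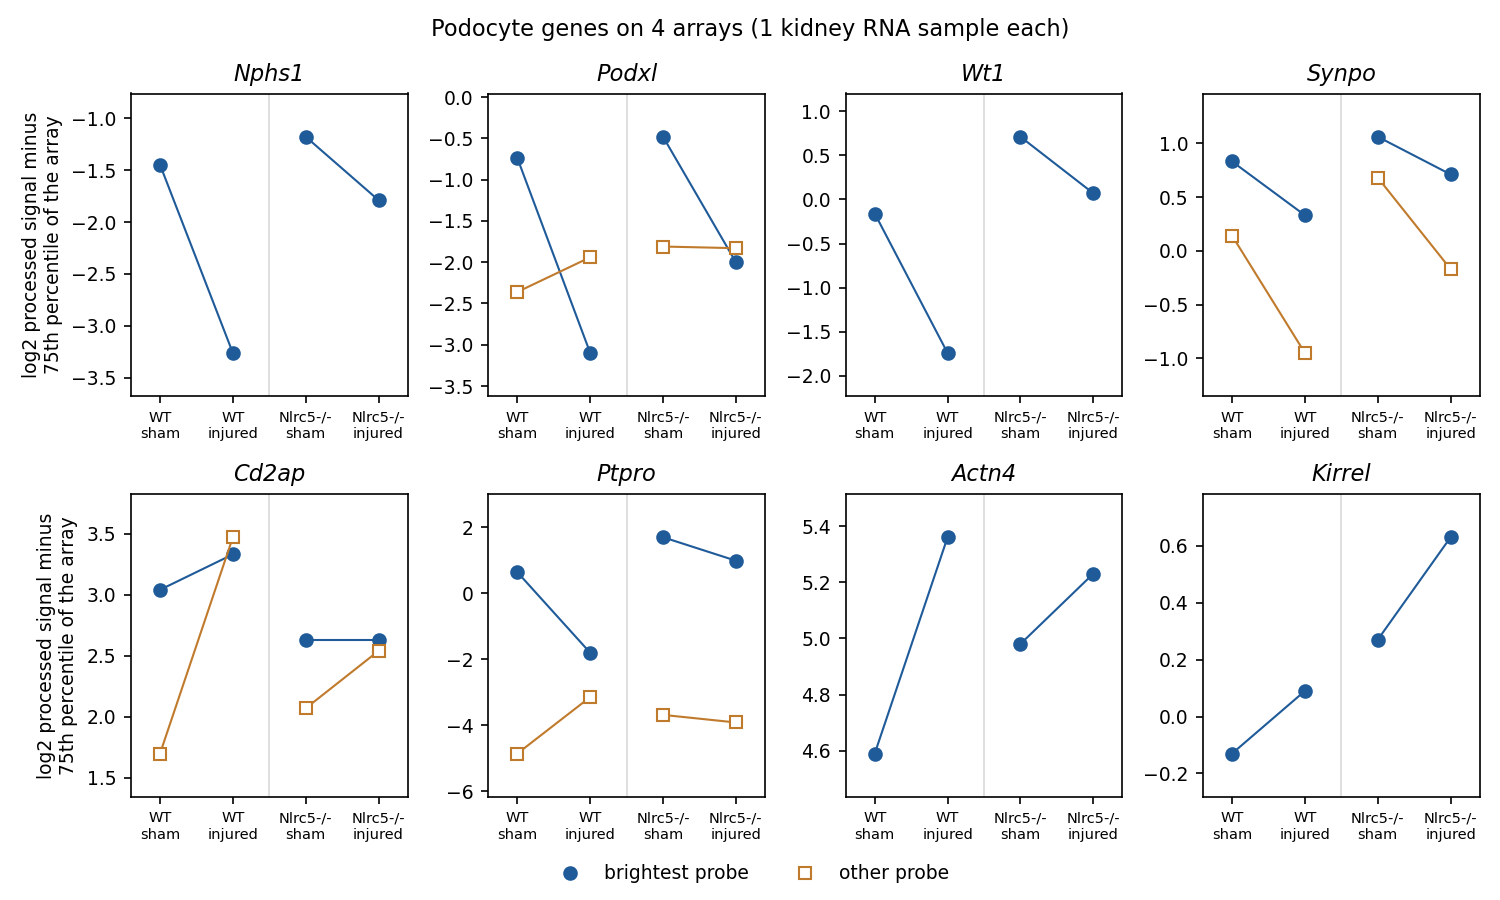
Level of each of the 8 podocyte genes on the 4 arrays, as log2 processed signal minus the 75th percentile of the array (vertical axes differ between panels), with 1 array per group. Filled circles are the brightest probe and open squares the other probe above background on all 4 arrays; lines join sham and injured of a genotype. The brightest probes of Nphs1, Podxl, Wt1 and Ptpro are lowest in injured WT, and the other probes of Podxl, Cd2ap and Ptpro are higher in injured WT than in WT sham.

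By the brightest probe of each gene, 4 of the 8 genes (Nphs1, Podxl, Wt1 and Ptpro) were at least 2-fold lower in injured than in sham WT kidney, and 12.7% of 16719 genes above background on either array were. None of the 8 was at least 2-fold higher, against 14.4% of all genes. Their median difference was -1.04, beside 0.03 over all genes. Without the WT sham array, with Nlrc5-/- sham as the reference, the same 4 genes were at least 2-fold lower (Nphs1 -2.08, Podxl -2.63, Wt1 -2.44, Ptpro -3.51) and the median was -1.4. That comparison keeps the same injured WT array and crosses genotype, slide and sex pattern. Wt1 and Ptpro already stood 0.87 and 1.06 higher in Nlrc5-/- between the sham arrays. In Nlrc5-/-, 1 of 8 (Podxl) was at least 2-fold lower after injury, against 3.18% of 17087 genes, and none was higher, against 4.45%. The median of the 8 was -0.48, beside 0.02 over all genes. Without the sham Nlrc5-/- array, with WT sham as the reference, the injured Nlrc5-/- array gave a median of 0.05 for the 8 genes, and Podxl (-1.26) was again the 1 gene at least 2-fold lower. On that reference, which crosses genotype and slide, Wt1 (0.23) and Ptpro (0.35) stood above sham and Nphs1 below it (-0.34). Between the sham arrays, Ptpro was the 1 gene at least 2-fold higher in Nlrc5-/- (3.94% of 17036 genes), and none was lower (3.24%).

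Between the injured arrays, the same 4 genes that were lower in injured WT stood at least 2-fold higher in Nlrc5-/-, against 8.72% of 16790 genes, and none was lower, against 7.75%. These comparisons share the injured WT array, so that one low array enters both counts. The difference between the injury responses, Nlrc5-/- minus WT, was at least 1 for Nphs1 (1.19) and Ptpro (1.73), against 9.8% of 14994 genes above background on all 4 arrays. It was -1 or less for none of the 8, against 9.32%. It stood at 0.94 for Wt1, 0.84 for Podxl, 0.15 for Synpo and 0.13 for Kirrel, and was -0.28 for Cd2ap and -0.51 for Actn4.

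**Figure D2:**
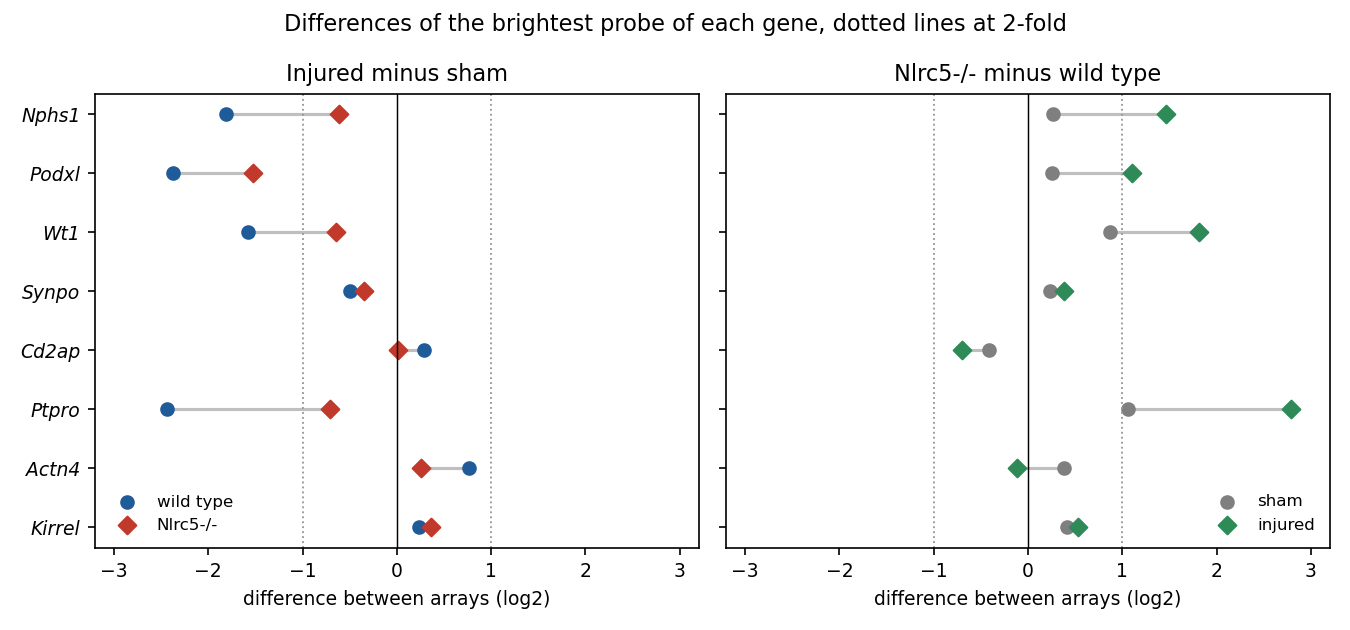
Log2 differences between arrays for the brightest probe of each gene, injured minus sham in each genotype (left) and Nlrc5-/- minus WT in each treatment (right), with 1 array per group. Nphs1, Podxl, Wt1 and Ptpro lie left of the 2-fold line in WT after injury and right of it between the injured arrays; the sham arrays differ by 2-fold for Ptpro only.

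A limma fit with injury and genotype as additive terms over the 4 arrays left 1 residual degree of freedom, which is the difference between the injury responses. Limma combined this with a spread estimated over all genes (2.46 prior degrees of freedom, SD 0.3), so each SE holds both. At an adjusted p under 0.05, limma called 0% of the 16609 genes tested for the injury term and 0% for the genotype term, and none of the 8 podocyte genes. At an unadjusted p under 0.05, limma called 856 genes higher and 1004 lower for injury, and 564 higher and 345 lower for genotype. Podxl had the smallest unadjusted p of the 8 for injury (-1.95 ± 0.34 SE, unadjusted p = 0.00714, adjusted p = 0.432 by limma with Benjamini-Hochberg adjustment), and its brightest probe was lower in the injured array of both genotypes. For genotype, Wt1 (1.34 ± 0.36 SE) and Ptpro (1.93 ± 0.53 SE) had unadjusted p-values of 0.0264 and 0.0283 by limma, both with an adjusted p of 0.767. Without the injured Nlrc5-/- array, and with genotype dropped from the limma model, the adjusted p of Podxl for injury was 0.0384, in a fit that called 769 genes. That fit sets 1 injured array against both shams, and the spread of a gene itself comes from the shams alone. Leaving out the WT sham, Nlrc5-/- sham or injured WT array in the same way gave limma adjusted p-values of 1, 0.614 and 0.451 for Podxl.

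Where a gene had a further probe above background on all 4 arrays, the probes did not give the same injury difference. The upstream probe of Podxl, at base 1820 of the transcript against 4358 for the brightest, read -2.36, -1.81, -1.94 and -1.83. It was 0.42 higher in injured than in sham WT, where the downstream probe was -2.37. In Nlrc5-/- its injury difference was -0.02, where the downstream probe was at -1.53. Between the injured arrays the upstream probe differed by 0.11 and the downstream probe by 1.1. The upstream probe of Ptpro, at base 3380 against 4986, read -4.85, -3.68, -3.14 and -3.91 and was 1.71 higher in injured WT, where the downstream probe was -2.44. This Ptpro probe was dim, with processed signals of 15.8, 36.3, 20.6 and 24.1 before scaling, and it also reversed the genotype difference after injury, at -0.77 against 2.79. The low values of Ptpro and Podxl in injured WT therefore rest on their downstream probes. So do the 2-fold difference of Podxl in injured Nlrc5-/- and those of both genes between the injured arrays. Nphs1 and Wt1 have no other probe to set beside theirs. The brightest probes of Nphs1 and Podxl were also dim in injured WT, with processed signals of 19.0 and 21.1 before scaling. Those of Ptpro and Wt1 were at 52.1 and 54.6 there. The Ptpro upstream probe covers 856 bases of genome (chr6:137391209-137392064, mm9) and crosses an intron. It is shown because it goes against the brightest probe.
Ptpro upstream probe: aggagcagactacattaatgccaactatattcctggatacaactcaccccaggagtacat

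The upstream probe of Cd2ap, at base 2074 against 4915, read 1.7, 2.07, 3.47 and 2.54. It was 1.77 higher in injured WT and 0.47 higher in injured Nlrc5-/-, while the downstream probe differed by 0.29 and 0.01. For Synpo the brightest probe lies upstream, at base 2970, and the probe at base 4503 read 0.14, 0.68, -0.95 and -0.17. That downstream probe was lower after injury by more than the brightest, at -1.09 in WT and -0.85 in Nlrc5-/-. In all 4 genes with a pair of probes, in both genotypes, the downstream probe thus gave the lower injury difference.

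The same order was common on these arrays. Over 2640 transcripts with probes above background at least 1000 bases apart, the injury difference of the downstream probe minus that of the upstream probe had a median of -0.58 in WT and was below 0 in 76.1%. In Nlrc5-/- the median was -0.26, below 0 in 72.0%. Between the injured arrays the median was 0.14, and between the sham arrays -0.15. The WT gap of Ptpro was -4.16, and 0.114% of the 2640 transcripts had one as low or lower. For Podxl (-2.79) that share was 1.06%, for Cd2ap (-1.48) 12.3% and for Synpo (-0.59) 49.6%. In Nlrc5-/- the gap of Podxl was -1.5, with a share of 0.682%, and the shares of Ptpro, Cd2ap and Synpo were 29.5% to 32.7%. Probe position thus moved with injury across the arrays, more in WT. Signal level did so too. Probes with a mean level from -9 to -4 had a median injury difference of 0.57 in WT and 0.08 in Nlrc5-/-. For probes from 2 to 15 these medians were -0.07 and 0.02. Position and level were not separated, and the part of either in the values of the 8 genes was not tested.

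**Figure D3:**
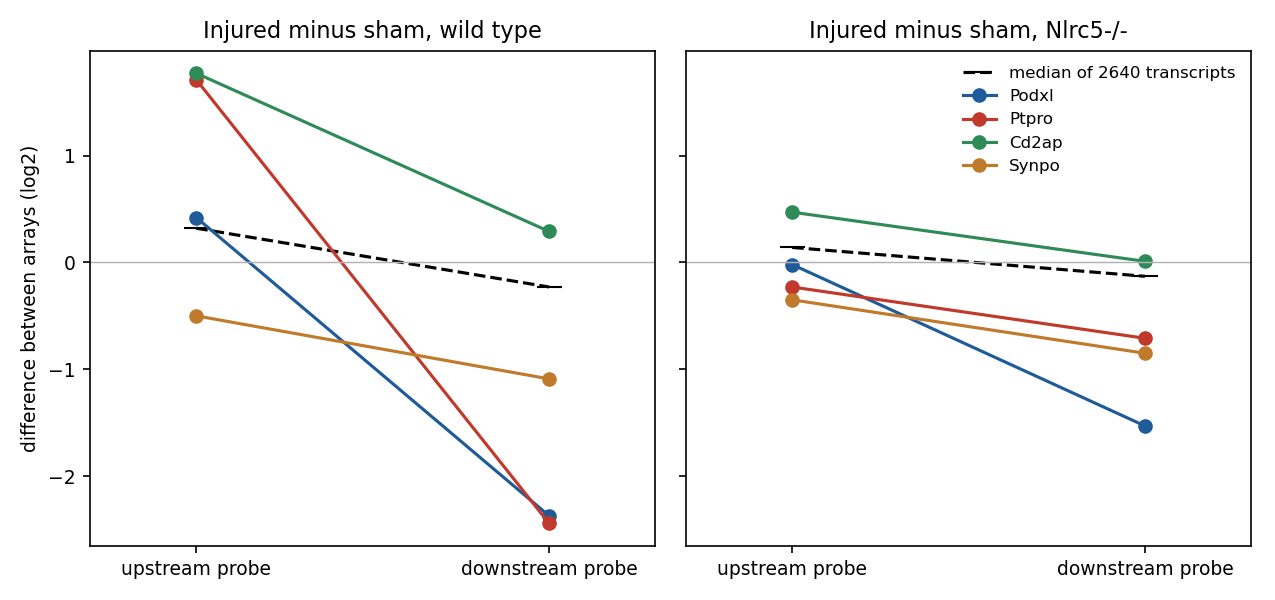
Injured minus sham difference (log2) of the upstream and the downstream probe of the 4 podocyte genes with a pair of probes above background on all 4 arrays, in WT (left) and Nlrc5-/- (right), with 1 array per group. The dashed line joins the medians over 2640 transcripts, 0.32 upstream and -0.23 downstream in WT. All 4 lines slope down, most steeply for Ptpro and Podxl in WT.

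Other podocyte genes, grouped by role and without the 8, gave mixed values, to be read beside the 12.7% of all genes at least 2-fold lower and the 14.4% at least 2-fold higher in injured WT. Of the slit diaphragm and junction genes measured in WT after injury, 4 of 14 were at least 2-fold lower and 2 higher, with a median of -0.57. Of the apical surface genes, 3 of 6 were lower and none higher. Clic5, an ezrin-associated protein of the foot process, was -2.17 from sham in injured WT and 1.6 higher in Nlrc5-/- than in WT after injury. Of the transcription factors and regulators, 4 of 10 were lower and 1 higher, with Tcf21 at -1.92 and Foxc2 at -1.61 in injured WT. Of the secreted factors and other markers, 5 of 14 were lower and none higher, with Vegfa, the endothelial growth factor that podocytes release, at -1.49.

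Of the genes of actin and foot processes, 4 of 13 were at least 2-fold higher and 2 lower in injured WT, with a median of 0.77. Myo1e, an actin motor of the foot process, was 5.11 higher in injured WT, and stood 0.53 above sham in Nlrc5-/-. Between the sham arrays Myo1e was 1.61 higher in Nlrc5-/-. Of the genes of the glomerular basement membrane and its receptors, 6 of 15 were higher and 2 lower, with a median of 0.66. Itga3, the laminin-binding integrin subunit of podocytes, was 1.45 higher, while Col4a3, a collagen chain of the mature membrane, was at -1.51. Many of these genes are active in tubule cells as well, and the part of any cell type in their values was not tested.

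Endothelial markers, like the 4 low podocyte genes, were lowest in injured WT as a list. Low values there were shared by the lists of proximal tubule and of thick limb and distal tubule (median -1.63 for the latter). The mesangial and parietal lists differed. Of 13 endothelial markers, 10 were at least 2-fold lower in injured WT (median -1.52) and none in injured Nlrc5-/- (median -0.42). After injury, 11 were at least 2-fold higher in Nlrc5-/- than in WT (median 1.76). Between the sham arrays the median over all genes was 0.05. There all 13 markers already stood higher in Nlrc5-/-, by 0.07 to 0.89 (median 0.61). Their summed level, in units of the 75th percentile of the array, was 17.42 in injured WT and 58.61 to 84.13 on the other arrays, and 12 of 13 were above background in injured WT. Kdr, the VEGF receptor of endothelium, read 2.17, 2.79, 0.0 and 2.46. Of 10 proximal tubule markers, 8 were lower in injured WT (median -1.87) and none in injured Nlrc5-/- (median 0.14), with a summed level of 1356 in injured WT and 1531 to 1875 elsewhere. Kap, an androgen-regulated tubule gene that was 0.89 above sham in injured WT, is named because of its values. It made up 1101 of the sum in injured WT and 434.8 to 755.2 of the sums elsewhere. Without Kap the sum was 254.8 in injured WT and 1097 to 1182 elsewhere. Of 11 mesangial, pericyte and smooth muscle markers, 2 were lower in WT and 3 in Nlrc5-/-, with medians of -0.4 and -0.5. Of 7 parietal epithelial markers, 6 were higher in injured WT (median 1.3) and 1 in injured Nlrc5-/- (median 0.57), and their summed level was 166.0 in injured WT and 24.41 to 45.49 elsewhere. The part of these cell types in the values of the podocyte genes was not tested.

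**Figure D4:**
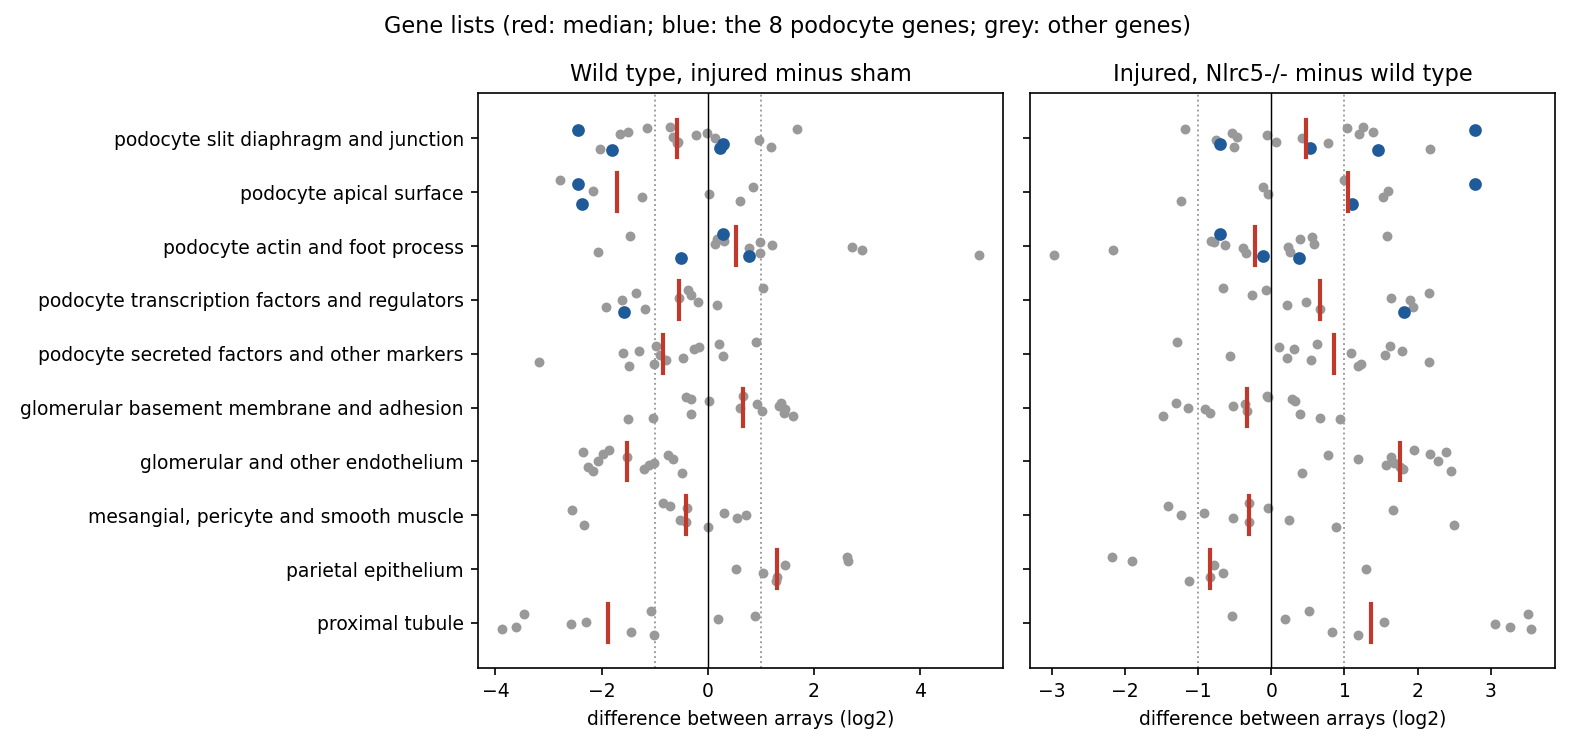
Log2 differences of the genes of 10 lists in WT after injury (left) and between the injured arrays, Nlrc5-/- minus WT (right), with 1 array per group. Grey points are genes, blue points the 8 podocyte genes where a list holds them, red bars list medians and dotted lines 2-fold. Endothelial markers all lie left of 0 in WT after injury and right of 0 between the injured arrays; foot process and basement membrane genes have medians above 0 in WT after injury.

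Among 14993 other genes above background on all 4 arrays, the profile closest to that of Nphs1 was measured by the root mean square distance of the centred log2 values over the 4 arrays. P3h2, a collagen prolyl hydroxylase, was the nearest at 0.04, followed by Cdkl1 (0.06), Ccrl2, Vwa1 and Klf15 (0.07 each). Vwa1 encodes a matrix protein and Klf15 a transcription factor. Of the podocyte genes, Wt1 ranked 153 (0.25, the nearest 1.02%), Podxl 672 (0.39), Synpo 1855 (0.55) and Ptpro 2177 (0.58). Kirrel ranked 6949, Actn4 11269 and Cd2ap 11595, so the 8 genes did not share 1 profile. With 4 arrays, this likeness is a description.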

How the data were processed

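Whole kidney RNA was measured on 4 one-colour Agilent arrays, 1 per group as the labels give it. Spot intensity values in the deposited scanner output came from Agilent Feature Extraction (10.7.3.1 per the file headers, 9.1 per the submitters' processing notes) and were background-subtracted within each array, per the file headers. Probe coordinates are those of mm9. The authors' deposited value table holds log2 values (column medians 5.91 to 5.93), whose normalization between arrays is not given in the sources used here. It served as an alternative.

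Of 45018 spots per array, 43379 were not controls. After removal of spots carrying 1 of 2 outlier flags and averaging of repeated spots, 41142 probes remained. Each log2 processed intensity had the 75th percentile of its array subtracted. Probes were named by accession (27668), symbol (5589) or synonym (471) through the RefSeq table (GRCm38.p6), and 1264 more by the array's own gene name. No name was found for 6182. The brightest probe stood for each gene. A probe not well above background on 1 of the arrays compared was raised there to that array's dimmest well-detected probe where its own signal was lower. Counts of genes past 2-fold cover those detected on 1 or both of the arrays compared, or on all 4 for the difference between responses. The limma fits (version 3.58.1, R 4.3.3) tested genes above background on at least 2 arrays, with Benjamini-Hochberg adjustment, and were tested on simulated data. The number of arrays limits the precision.

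The 8 genes and the 16 gene lists were chosen with earlier results of these data known. All probes of the 8 genes are described. Of each list, the text names genes among the 3 with the largest difference in injured WT and the 3 with the largest difference between the injured arrays. Relatives of the 8 genes, and the 8 genes nearest in profile to Nphs1 or Actn4, could also be named. A gene among those this rule names is not reported here.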

Additional observations from a re-analysis of the deposited data

How the results depend on the processing

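Alternatives covered background correction, scaling, dim probes, flagged spots, the authors' values, the fold threshold and the probe standing for a gene. Normexp without flagged spots, the sham array of the other genotype as the reference, and means over probes above background were chosen after seeing the data. Of the alternative values, 347 stayed the same, 114 moved and 3 reversed. The 347 include values that could not change. The brightest probes of the 8 genes were all above background on all 4 arrays. Dropping the filter on dim probes, or keeping only genes above background on all 4 arrays, therefore repeated their main differences. The cause of a change was not tested unless stated.

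The WT injury median of the 8 genes was -0.52 under normexp, -0.52 under normexp without flagged spots, -0.12 as a mean over all probes and -0.58 over probes above background, with 1, 2, 2 and 2 genes lower by 2-fold and, under both probe means, 1 higher. Against Nlrc5-/- sham it was -1.4. Under normexp the WT injury difference was -0.44 for Nphs1, -1.0 for Podxl, -0.97 for Wt1 and -1.8 for Ptpro, each smaller than in the main setting. Both normexp settings added an offset of 50 to each signal, which narrows log2 differences between dim signals. In injured WT the processed signals of these genes before scaling were 19.0, 21.1, 54.6 and 52.1. The injury median in Nlrc5-/- was -0.24 under normexp without flagged spots, -0.16 over all probes and 0.05 against WT sham, and no gene (0) was 2-fold lower under normexp or either probe mean. The sham genotype median was 0.17 under median scaling, with 0 genes 2-fold higher there and under either normexp. The injured genotype median was 0.62, 0.41, 0.62 and 0.59 under the 2 normexp fits and the 2 probe means, with 2 genes higher under either normexp and 1 lower under the first. The median response difference was 0.27, 0.28, -0.04 and 0.16 in that order and 0.82 against WT sham, with 0, 1, 1, 1 and 4 genes higher. At 4-fold, 2 genes were lower in injured WT, 0 in injured Nlrc5-/-, 1 higher between injured arrays and 0 in the sham or response comparisons. Ptpro reversed: 0.01 in WT injury over all probes, and a response difference of -0.03 over all probes and -0.11 over those above background. With the upstream probe alone added, its WT injury value was -0.36; the sign turned when a probe above background on no array (0) was averaged in too.

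By limma, 1 of the 8 genes passed for injury under normexp, in a fit that called 4438 of 16609 genes, and 2 without flagged spots (Podxl, adjusted p = 0.0401, and Ptpro, adjusted p = 0.0189), where 1129 genes were called. For genotype 1 passed without flagged spots (Ptpro, adjusted p = 0.00526), where 184 genes were called. The prior degrees of freedom were infinite under normexp and 78.67 without flagged spots, against 2.46 in the main fit. The SEs of the normexp fits thus came almost wholly from the spread over all genes. A gene itself gave 1 residual degree of freedom. On the injured Nlrc5-/- array, normexp over all spots estimated a background of -225.2, against -5.4 to -1.3 elsewhere. Leaving out 1 array at a time with the other factor dropped, 0 to 1 of the 8 genes passed for injury and 0 for genotype. No paired analysis was possible because the labels give no replicate numbers that groups share; the limma fit holds genotype, and with it the slide, as a term. Spots not above background limit Kirrel, Synpo and Ptpro, which each have at least 1 probe not well above background on any array.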

Other observations

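Of the relatives of the 8 genes, Kirrel3, Podxl2 and Ptprh were not above background on any array. Cd34, a sialomucin related to podocalyxin that marks endothelium, read 2.94, 3.33, 1.08 and 3.03 in WT sham, Nlrc5-/- sham, WT injured and Nlrc5-/- injured, lowest in injured WT as Podxl was. Actn1, the relative of Actn4, read -0.86, -1.04, 0.55 and -0.77. It was highest in injured WT, 1.41 above sham, where Actn4 was 0.77 above sham. Egr1, an immediate early factor whose zinc fingers resemble those of Wt1, was 3.28 higher in injured WT, where Wt1 was at -1.58. The genes nearest to Actn4 in profile were Larp4 (0.01), Zmynd8, Fam131a and Dicer1 (0.02 each).

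Lists of further cell types gave these medians in WT and Nlrc5-/- after injury: thick limb and distal tubule -1.63 and -0.77, collecting duct -0.51 and -0.97, and leukocytes 0.64 and 0.13. Adipocyte and urothelial markers, of tissues that border the kidney parenchyma, had medians of -5.16 and -3.42 in WT after injury, both set by genes not well above background in injured WT and so bounds. Between the sham arrays the medians were -6.02, also a bound, and -1.57, while Nphs1 differed by 0.27 there.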
